A study of Arabidopsis thaliana with 54 samples.

Results

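The genes examined here are 7 members of the Aux/IAA family of auxin repressors, IAA5 (AT1G15580), IAA6 (AT1G52830), IAA11 (AT4G28640), IAA14 (AT4G14550), IAA29 (AT4G32280), IAA20 (AT2G46990) and IAA30 (AT3G62100), together with the auxin response factor gene ARF19 (AT1G19220). They were taken from the expression table by locus identifier, as 8 of the 23997 genes it held, and their levels were followed over all 18 groups of the study. RNA of whole Arabidopsis thaliana seedlings was sequenced 5, 30 or 180 min after the start of treatment. The groups were GV (guvermectin, a purine nucleoside of microbial origin, 10 µM), IAA (indole-3-acetic acid, the main natural auxin, 1 µM), ZT (zeatin, a cytokinin, 1 µM), eBL (epibrassinolide, a brassinosteroid, 1 µM), GA3 (gibberellic acid, 1 µM) and Control, each with 3 libraries at each time. The labels name no genotype, seedling age or solvent. The GV dose differed from that of the other compounds, so the sizes of their responses are not at matched doses.

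Auxin acts by removing repressors. Aux/IAA proteins bind auxin response factors (ARFs) on their target genes and, with the co-repressor TOPLESS, keep these genes silent. Auxin binds receptors of the TIR1/AFB family together with the Aux/IAA degron, the repressor is degraded, and activating ARFs such as ARF19 turn on genes that include many of the Aux/IAA genes themselves, which closes a negative feedback loop.

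The coding sequences show which of the 8 carry the degron, a short stretch that TIR1/AFB receptors grip around a glycine, a tryptophan and a pair of prolines. A search of the RefSeq coding sequences (TAIR10.1 build) for this core followed by valine or isoleucine found it in IAA5, IAA6, IAA11, IAA14 and IAA29, and not in IAA20, IAA30 or ARF19. The 39 bases around the core are printed below 5′ to 3′ on the coding strand, with the core codons in capitals. They lie at chr1:5366269-5366307 (minus strand, exon 1) for IAA5, chr1:19673317-19673355 (minus strand, exon 1) for IAA6, chr4:8349472-8349510 (minus strand, exon 2) for IAA14 and chr4:15583939-15583977 (plus strand, exon 2) for IAA29. The stretch of IAA11 (plus strand) runs over the junction of exons 1 and 2, so its span of chr4:14142546-14143038 includes an intron.
IAA5: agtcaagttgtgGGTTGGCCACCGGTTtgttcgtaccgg
IAA6: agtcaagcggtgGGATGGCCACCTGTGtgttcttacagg
IAA11: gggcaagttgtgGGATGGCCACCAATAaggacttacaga
IAA14: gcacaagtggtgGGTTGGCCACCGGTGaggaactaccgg
IAA29: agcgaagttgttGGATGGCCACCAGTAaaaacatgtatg
IAA20 and IAA30, the pair without this core, had the most similar coding sequences among the Aux/IAA members, with 82.8% identical bases over 516 aligned bases. The other 20 pairs shared from 56.2% (IAA6 and IAA11) to 67.3% (IAA5 and IAA6).

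ARFs bind short auxin response elements, of which TGTCTC and TGTCGG were searched on both strands in the 300 bases before each annotated start, where none of their matches overlapped. TGTCTC was found on the gene's own strand in IAA5 (67 to 62 bases before the start), IAA6 (179 to 174), IAA20 (69 to 64) and IAA30 (56 to 51). TGTCGG was found in IAA5 (226 to 221 on its own strand and 97 to 92 on the other strand) and in ARF19 (66 to 61, other strand), and no letters of either kind were found in this window of IAA11, IAA14 or IAA29. Over 27443 promoters of this length, 13% held TGTCTC, 4.91% held TGTCGG and 17.3% held at least 1 of them. The last 120 bases before the start are printed 5′ to 3′ in the direction of the gene for the 4 members with a match there, with matches in capitals, which read in reverse complement where the match is on the other strand. They are chr1:5366498-5366617 (minus strand) for IAA5, chr2:19307594-19307713 (plus strand) for IAA20, chr3:22995566-22995685 (plus strand) for IAA30 and chr1:6633134-6633253 (minus strand) for ARF19 in TAIR10.1.
IAA5: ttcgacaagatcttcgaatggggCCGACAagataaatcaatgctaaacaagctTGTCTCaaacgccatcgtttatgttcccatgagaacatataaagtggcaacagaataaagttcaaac
IAA20: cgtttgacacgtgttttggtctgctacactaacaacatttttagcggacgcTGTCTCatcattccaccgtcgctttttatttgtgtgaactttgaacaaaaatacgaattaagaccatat
IAA30: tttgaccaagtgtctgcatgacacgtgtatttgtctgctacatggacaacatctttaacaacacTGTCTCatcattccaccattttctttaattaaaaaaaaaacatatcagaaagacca
ARF19: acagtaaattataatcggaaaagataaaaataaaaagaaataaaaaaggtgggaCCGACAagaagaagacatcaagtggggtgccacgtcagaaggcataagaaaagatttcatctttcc
A match describes these letters only, and binding was not measured. The loci themselves run over chr1:5365512-5366497 (minus strand) for IAA5, chr1:19672476-19673652 (minus) for IAA6, chr4:14142063-14143969 (plus) for IAA11, chr4:8347822-8350263 (minus) for IAA14, chr4:15583332-15584903 (plus) for IAA29, chr2:19307714-19309071 (plus) for IAA20, chr3:22995686-22996809 (plus) for IAA30 and chr1:6627683-6633133 (minus) for ARF19 in TAIR10.1.

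Levels are given in FPKM, which divides the reads of a gene by its length and by the depth of the library. The implied depth was 17.8 to 23.8 M reads, and 5.65 to 7.51 M reads of each library lay in the table. Correlations between the libraries of a group were 0.971 or higher, apart from those of eBL 30 min replicate 3 (0.867 and 0.871), so changes and counts of calls with eBL at 30 min are also given without it. Whether replicates stem from different cultures is not stated in the labels. The p-values therefore reflect only how far these libraries scatter, which may be technical. Every GV value rests on a column recognised by elimination, since its name in the table differs from the label. The columns of ZT, eBL and GA3 at 30 and 180 min stand together, apart from those of Control, GV and IAA at these times. The labels do not say whether these libraries were handled as separate sets. A difference between such sets could not be told apart from effects of ZT, eBL and GA3. A gene was called when its limma adjusted p was under 0.05 over the 10622 genes tested, and all 8 members passed the filter for testing (1 FPKM or more as the mean of some group). IAA5 passed only through the IAA groups at 30 and 180 min, where it is high, since its mean was 0.961 FPKM or less in every other group. Outside those groups IAA29 reached the filter only with eBL at 30 min (1.47 FPKM), where replicate 3 was highest (2.48 FPKM). IAA30 reached it there only with ZT at 180 min (1.05 FPKM). Changes are differences of log2(FPKM + 1), given with their standard error (SE), and they understate the change of genes near 0.

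The members fell into 3 kinds by level. IAA11, IAA14, IAA20 and ARF19 were measured in every library, with medians of the 18 group means of 7.92, 6.03, 3.85 and 5.11 FPKM. IAA29 and IAA30 were low, at medians of 0.809 and 0.678 FPKM. IAA5 was close to the detection limit outside the IAA groups, and IAA6 was low but had 1.64 FPKM with eBL and 1.09 FPKM in Control at 180 min. Their medians were 0.300 and 0.336 FPKM, and they were listed at 0 in 5 and 11 of the 54 libraries. IAA at 30 min gave the highest group mean of IAA5 (15.3 FPKM), IAA6 (4.27), IAA11 (20.0), IAA14 (9.37) and IAA29 (8.80), and IAA at 180 min that of IAA20 (8.28) and IAA30 (4.0). ARF19 was the exception, with its highest mean with ZT at 30 min (9.14 FPKM). When the 18 groups were put in order of their means, most neighbours overlapped: of 17 neighbouring pairs, the ranges of the 3 libraries overlapped in 15 for IAA5, 14 for IAA6, 14 for IAA11, 17 for IAA14, 16 for IAA20, 15 for IAA29, 16 for IAA30 and 16 for ARF19. In whole seedlings, fewer cells that express a gene and less RNA per cell cannot be told apart.

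**Figure D1:**
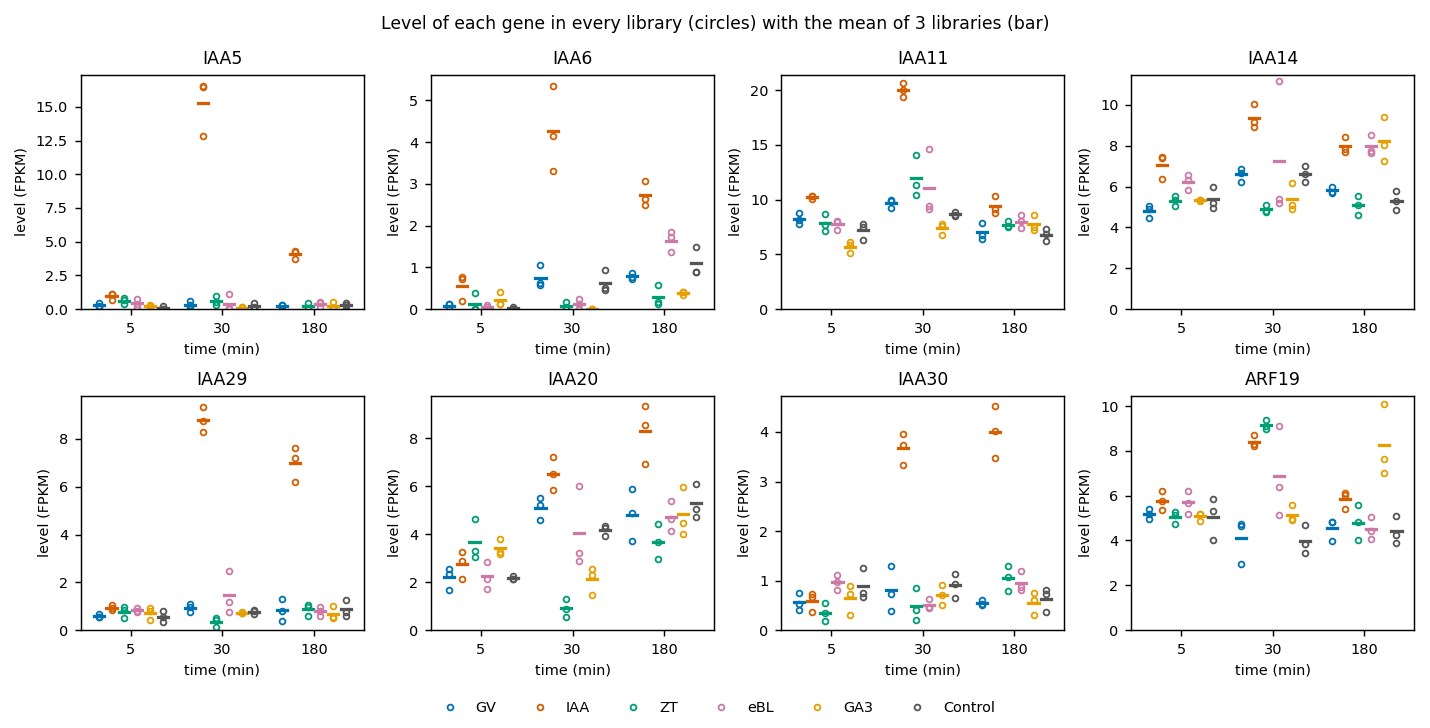
Level of each gene in FPKM on a linear axis at 5, 30 and 180 min, with 1 circle per library and a bar at the mean of the 3 libraries, in the order GV, IAA, ZT, eBL, GA3 and Control at each time. The IAA libraries at 30 and 180 min stand above all others for IAA5, IAA6, IAA29 and IAA30, while the highest ARF19 mean is that of ZT at 30 min (9.14 FPKM).

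IAA raised 3 of the 8 members at 5 min, all 8 at 30 min and 7 at 180 min, and lowered none. The IAA20 calls at 30 and 180 min and the IAA6 call at 180 min are lost under other settings, given with each gene. Among all genes tested, the shares called higher with IAA were 6.86%, 7.16% and 11.2% at 5, 30 and 180 min, and the shares called lower 5.29%, 2.66% and 6.48%. The counts of members include IAA5, which passed the filter only through IAA groups at 30 and 180 min. The members were also chosen with earlier results of these data known. These counts, and those with IAA further below, therefore describe the 8 genes and are no test of them as a set. The median change of the members was 0.33, 1.21 and 0.70 at the 3 times, beside 0.03, 0.03 and 0.05 over all genes. After quantile normalization the share of all calls that was higher was 61.2% in place of 72.9% at 30 min and 49.0% in place of 63.4% at 180 min.

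Among the repressors with a degron, IAA5 gave the widest swing. At 5 min its level was 1.10, 1.13 and 0.648 FPKM with IAA and 0, 0 and 0.202 FPKM in Control, where 3 reads were counted in all. By 30 min it reached 16.5, 16.6 and 12.8 FPKM with IAA, against 0.128, 0.483 and 0.0699 FPKM in Control. Later, at 180 min, it stood at 4.28, 4.20 and 3.69 FPKM with IAA and at 0.327, 0.483 and 0 FPKM in Control. At each time the IAA libraries lay above all Control libraries, and the changes were 0.87 ± 0.21 (limma adjusted p = 0.0024), 3.74 ± 0.21 (adjusted p = 3.81e-18) and 2.01 ± 0.21 (adjusted p = 2.74e-10). The 30 min means of 15.3 ± 2.15 FPKM with IAA and 0.227 ± 0.224 FPKM in Control (SD, n = 3 each) give a ratio that rests on few Control reads: it lies between 50.1 and 155 on leaving out 1 library at a time, highest without Control replicate 2. The IAA5 locus overlaps AT1G15570 by 48 bases on the opposite strand, and the use of strand in counting is not known here. AT1G15570 itself changed by 0.47 ± 0.13 with IAA at 30 min (adjusted p = 0.0187).

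IAA6 was barely detected before 30 min. With IAA at 5 min it had 0.767, 0.182 and 0.709 FPKM (28 reads in all), against 0.0582, 0 and 0 FPKM in Control (1 read). It rose by 0.58 ± 0.15 (adjusted p = 0.00655), a call that is lost without IAA 5 min replicate 1 (adjusted p = 0.0664) or replicate 3 (adjusted p = 0.0517). At 30 min its levels were 5.35, 4.15 and 3.31 FPKM with IAA and 0.930, 0.503 and 0.446 FPKM in Control, and at 180 min 3.07, 2.50 and 2.65 FPKM with IAA and 0.893, 1.49 and 0.899 FPKM in Control. The groups did not overlap at either time. The rise was 1.69 ± 0.15 at 30 min (adjusted p = 1.37e-11) and 0.85 ± 0.15 at 180 min (adjusted p = 3.73e-05). With a pseudocount of 0.1 in place of 1 FPKM, the change at 180 min was 1.28 and no longer called (adjusted p = 0.0765).

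IAA29 rose at 30 and 180 min. At 5 min its level was 0.946, 1.06 and 0.829 FPKM with IAA and 0.350, 0.789 and 0.534 FPKM in Control, a change of 0.33 that was not called (adjusted p = 0.247). It reached 9.35, 8.31 and 8.75 FPKM with IAA at 30 min, against 0.815, 0.839 and 0.681 FPKM in Control. Levels at 180 min were 7.19, 7.64 and 6.19 FPKM with IAA and 1.27, 0.589 and 0.751 FPKM in Control. No IAA library overlapped a Control library at either time, and the changes of 2.46 ± 0.17 (adjusted p = 8.74e-15) and 2.11 ± 0.17 (adjusted p = 6.32e-13) did not differ from each other beyond error (difference -0.35 ± 0.24, adjusted p = 0.445).

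IAA11 and IAA14, which are well expressed without added auxin, had smaller log2 changes. IAA14 encodes the repressor altered in the solitary-root mutant, which lacks lateral roots. IAA11 was the only one of the pair called at 5 min, with 10.0, 10.3 and 10.4 FPKM in IAA libraries against 7.74, 6.33 and 7.47 FPKM in Control (0.46 ± 0.11, adjusted p = 0.00204). At 30 min IAA11 had 19.4, 20.0 and 20.6 FPKM with IAA and 8.63, 8.86 and 8.51 FPKM in Control, a 2.31-fold difference of means (1.12 ± 0.11, adjusted p = 7.73e-11). The lead was smaller at 180 min, at 8.73, 10.3 and 9.15 FPKM with IAA and 6.19, 6.84 and 7.32 FPKM in Control (0.42 ± 0.11, adjusted p = 0.00353). Groups did not overlap at any of these times.

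IAA14 stood at 6.35, 7.45 and 7.41 FPKM with IAA at 5 min and at 4.97, 5.98 and 5.19 FPKM in Control, without overlap, but its change of 0.34 missed the threshold (adjusted p = 0.0752). It had 9.17, 10.0 and 8.90 FPKM with IAA at 30 min, against 7.02, 6.59 and 6.25 FPKM in Control, and 7.85, 7.69 and 8.44 FPKM with IAA at 180 min, against 5.30, 4.85 and 5.77 FPKM in Control. The rise was 0.44 ± 0.13 (adjusted p = 0.018) and 0.51 ± 0.13 (adjusted p = 0.0026). The 30 min call is lost without Control 30 min replicate 2 or 3 (adjusted p = 0.0557 and 0.0768) or without IAA 30 min replicate 2 (adjusted p = 0.0833), and without eBL 30 min replicate 3, whose spread enters the shared error, the 5 min change is called (adjusted p = 0.00181).

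Of the pair without the degron core, IAA30 had the larger log2 changes with IAA. Its level at 5 min was 0.356, 0.734 and 0.662 FPKM with IAA and 1.25, 0.662 and 0.742 FPKM in Control, with overlap and no call (change -0.25, adjusted p = 0.396). It reached 3.95, 3.73 and 3.34 FPKM with IAA at 30 min, against 0.652, 1.14 and 0.933 FPKM in Control. By 180 min it had 4.52, 4.02 and 3.47 FPKM with IAA and 0.359, 0.807 and 0.727 FPKM in Control. Every IAA library lay above every Control library at both times, with changes of 1.30 ± 0.16 (adjusted p = 9e-08) and 1.62 ± 0.16 (adjusted p = 2.39e-10).

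IAA20 had smaller changes. Its level was 2.15, 3.27 and 2.87 FPKM with IAA at 5 min, against 2.12, 2.25 and 2.13 FPKM in Control (change 0.24, adjusted p = 0.467). It was 5.82, 7.19 and 6.50 FPKM with IAA at 30 min, against 4.34, 4.25 and 3.92 FPKM in Control. At 180 min it was 9.33, 6.94 and 8.56 FPKM with IAA, against 4.70, 5.06 and 6.09 FPKM in Control. Ranges did not overlap at 30 or 180 min, and the changes of 0.53 ± 0.18 (adjusted p = 0.0471) and 0.56 ± 0.18 (adjusted p = 0.0219) are among the least firm of the series. Leaving out any 1 of the 6 libraries compared at 30 min ended that call (adjusted p from 0.0617 to 0.168), as did a pseudocount of 0.1 FPKM (adjusted p = 0.0979), dropping the filter (adjusted p = 0.0726) and quantile normalization (adjusted p = 0.0629). At 180 min it was lost with a pseudocount of 0.1 FPKM (adjusted p = 0.0604) and without Control replicate 1 or 2 (adjusted p = 0.0996 and 0.0688) or IAA replicate 1 or 3 (adjusted p = 0.110 and 0.0723).

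ARF19, an activating ARF that acts with ARF7 in lateral root formation, rose with IAA at 30 min. Its level at 5 min was 6.19, 5.36 and 5.76 FPKM with IAA and 4.02, 5.32 and 5.86 FPKM in Control, with overlap and no call (0.17, adjusted p = 0.507). At 30 min it was 8.20, 8.31 and 8.71 FPKM with IAA, against 4.67, 3.42 and 3.86 FPKM in Control, a 2.11-fold difference of means (0.92 ± 0.14, adjusted p = 2.23e-06). At 180 min the libraries did not overlap, at 6.14, 6.02 and 5.41 FPKM with IAA and 4.26, 5.09 and 3.90 FPKM in Control, yet the change of 0.34 ± 0.14 was not called (adjusted p = 0.0759). It is called without Control 180 min replicate 2 (0.43, adjusted p = 0.0467) or without eBL 30 min replicate 3 (adjusted p = 0.0338).

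The effect of IAA changed with time for most members. From 5 to 30 min it grew for IAA5 (by 2.86 ± 0.29), IAA29 (2.14 ± 0.24), IAA30 (1.54 ± 0.23), IAA6 (1.11 ± 0.21), ARF19 (0.75 ± 0.19) and IAA11 (0.66 ± 0.15), 6 of 8 members where 8.62% of all genes tested had a changed IAA effect (limma interaction contrast, adjusted p up to 0.00797). From 30 to 180 min it shrank for IAA5 (-1.73 ± 0.29), IAA6 (-0.84 ± 0.21), IAA11 (-0.70 ± 0.15) and ARF19 (-0.58 ± 0.19, adjusted p = 0.0495), 4 of 8 where 9.26% of all genes had a changed effect. The ARF19 call is lost without any of 10 of the 12 libraries (adjusted p from 0.0622 to 0.149), with no filter (adjusted p = 0.0763), with a pseudocount of 0.1 FPKM (adjusted p = 0.0649) and with a replicate block (adjusted p = 0.0574). For IAA14, IAA20, IAA29 and IAA30 the effect at 180 min could not be told from that at 30 min (differences of 0.07, 0.02, -0.35 and 0.32). For IAA5 and IAA6, whose Control level at 5 min rests on 3 and 1 reads, these differences in log2 change depend on the pseudocount: with 0.1 FPKM none of the 4 is called (adjusted p from 0.0589 to 0.877). For IAA6 from 5 to 30 min the difference was then 0.30. With limma voom on recovered reads it took the other sign (-0.81, adjusted p = 0.748), so a growth of the IAA6 effect is not established. Both intervals share the libraries at 30 min.

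**Figure D2:**
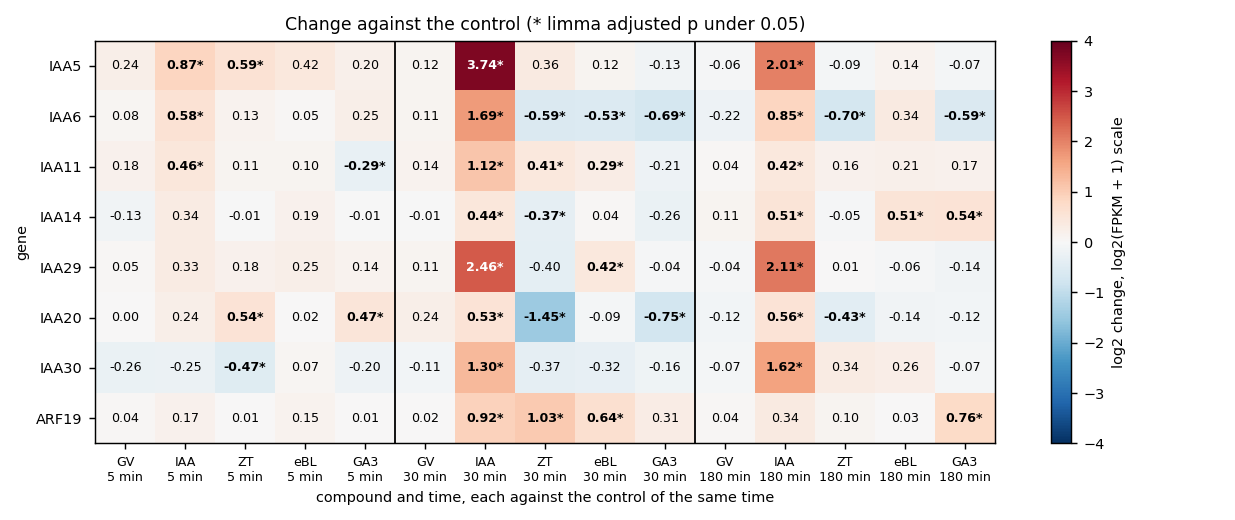
Change of each gene (rows) against the Control of the same time for each compound and time (columns), as the difference of log2(FPKM + 1), with an asterisk and bold type where the limma adjusted p is under 0.05. The IAA column at 30 min is positive and called for all 8 genes, up to 3.74 for IAA5, and no GV column has a call.

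None of the 8 members was called with GV at any time. Of all genes tested, 7.82%, 1.51% and 5.59% rose and 3.16%, 3.48% and 3.58% fell with GV at 5, 30 and 180 min. The count of called members was 0 at each time by limma on log2(FPKM + 1) and 0 by limma voom on the recovered reads, and 0 at an unadjusted p under 0.05. Changes ran from -0.26 for IAA30 at 5 min (adjusted p = 0.381) to 0.24 for IAA5 at 5 min and IAA20 at 30 min (adjusted p = 0.568 and 0.583). IAA5, the member that moved most with IAA, had 0.274, 0.572 and 0.144 FPKM with GV at 30 min and 0.128, 0.483 and 0.0699 FPKM in Control, overlapping ranges. IAA11 had the smallest SE (0.11), and its GV changes were 0.18, 0.14 and 0.04 at the 3 times. Ranges of GV and Control libraries did not overlap for IAA11 at 5 and 30 min and IAA20 at 30 min, all higher with GV. The same held for IAA6 at 180 min, which was lower with GV. None of these changes was called (limma adjusted p = 0.364, 0.585, 0.583 and 0.445). Quantile normalization moved the higher share of all GV calls to 58.2% in place of 71.2% at 5 min and to 40.8% in place of 30.2% at 30 min.

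ZT moved the members in both directions, and at 30 min ARF19 rose while IAA20 fell. At 5 min 2 members rose and 1 fell, at 30 min 2 rose and 3 fell, and at 180 min 2 fell. Of all genes, 19.5%, 19.1% and 17.1% were higher and 8.02%, 19.5% and 24.7% lower with ZT at the 3 times, so these counts stand beside a wide response. After quantile normalization the higher share of all ZT calls was 47.0% in place of 70.8% at 5 min and 51.2% in place of 40.9% at 180 min. ARF19 had 9.36, 8.98 and 9.09 FPKM with ZT at 30 min, against 4.67, 3.42 and 3.86 FPKM in Control, with no overlap (1.03 ± 0.14, adjusted p = 5.64e-08). It was not called at 5 min (0.01) or 180 min (0.10). The effect at 30 min exceeded that at 5 min by 1.03 ± 0.19 (adjusted p = 3.15e-05), and that at 180 min fell short of it by -0.94 ± 0.19 (adjusted p = 0.00038).

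IAA20 moved in the opposite direction with ZT at 30 min. Its level was 1.29, 0.557 and 0.882 FPKM with ZT, against 4.34, 4.25 and 3.92 FPKM in Control, so that the highest ZT library lay well below the lowest Control library. The change was -1.45 ± 0.18 (adjusted p = 1.04e-08). At 5 min it had instead been higher, at 3.05, 3.3 and 4.65 FPKM with ZT and 2.12, 2.25 and 2.13 FPKM in Control (0.54 ± 0.18, adjusted p = 0.018), a call lost without ZT 5 min replicate 3 (adjusted p = 0.146). By 180 min its level was 3.66, 4.41 and 2.94 FPKM with ZT and 4.70, 5.06 and 6.09 FPKM in Control (-0.43 ± 0.18, adjusted p = 0.0464, lost without Control replicate 2 or 3 or ZT replicate 1 or 3, with adjusted p from 0.0720 to 0.211). The ZT effect on IAA20 differed between 30 and 5 min by -2.00 ± 0.25 (adjusted p = 1.76e-08) and between 180 and 30 min by 1.02 ± 0.25 (adjusted p = 0.00283).

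The other ZT changes were smaller. At 30 min IAA6 had 0.165, 0 and 0.0598 FPKM with ZT, against 0.930, 0.503 and 0.446 FPKM in Control (-0.59 ± 0.15, adjusted p = 0.0019). IAA11 rose by 0.41 ± 0.11 (14.1, 10.4 and 11.3 FPKM with ZT and 8.63, 8.86 and 8.51 FPKM in Control, adjusted p = 0.00209). IAA14 fell by 0.37 on the log2 scale, to 4.76, 5.12 and 4.78 FPKM with ZT, against 7.02, 6.59 and 6.25 FPKM in Control (adjusted p = 0.0183). The IAA14 call is lost without Control 30 min replicate 1 (adjusted p = 0.0664) or ZT 30 min replicate 1 or 3 (adjusted p = 0.0516 and 0.0502). IAA29 had 0.442, 0.507 and 0.120 FPKM with ZT and 0.815, 0.839 and 0.681 FPKM in Control, which did not overlap, but its change of -0.40 was not called (adjusted p = 0.0602) unless ZT 30 min replicate 2 or eBL 30 min replicate 3 was left out (adjusted p = 0.0484 and 0.0265). At 5 min IAA5 rose by 0.59 ± 0.21 (0.796, 0.666 and 0.375 FPKM with ZT and 0, 0 and 0.202 FPKM in Control, adjusted p = 0.0263). IAA30 fell by 0.47 at that time, to 0.337, 0.190 and 0.541 FPKM with ZT, against 1.25, 0.662 and 0.742 FPKM in Control (adjusted p = 0.0276). Both calls at 5 min are lost on leaving out 1 library (Control replicate 1 or 2, or ZT replicate 1 or 2, for IAA5, with adjusted p from 0.0743 to 0.110, and Control replicate 1 or ZT replicate 1 or 2 for IAA30, with adjusted p from 0.0662 to 0.192). At 180 min IAA6 fell by 0.70 with ZT (0.578, 0.177 and 0.115 FPKM with ZT and 0.893, 1.49 and 0.899 FPKM in Control, adjusted p = 0.00021).

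With eBL no member was called at 5 min (0 by limma and 0 by limma voom). At an unadjusted p under 0.05 there was 1, IAA5 (0.42 ± 0.21, limma adjusted p = 0.349). Of all genes, 2.27% were higher and 1.07% lower at 5 min (56.9% of the calls higher after quantile normalization, in place of 67.9%). At 30 min 3 members rose and 1 fell, beside 23.1% of all genes higher and 20.6% lower, and at 180 min 1 rose, beside 16.2% higher and 21.8% lower. These 30 min counts turn on eBL replicate 3: without it 21.2% of all genes were higher and 16.5% lower, and 1 member was called higher (ARF19, 0.44) and 2 lower (IAA6, -0.46, and IAA14). ARF19 had 5.15, 6.38 and 9.12 FPKM with eBL and 4.67, 3.42 and 3.86 FPKM in Control, with replicate 3 the highest (0.64 ± 0.14, adjusted p = 0.000196). IAA11 had 9.37, 9.13 and 14.6 FPKM with eBL and 8.63, 8.86 and 8.51 FPKM in Control (0.29, adjusted p = 0.0277), and IAA29 had 1.18, 0.763 and 2.48 FPKM with eBL and 0.815, 0.839 and 0.681 FPKM in Control (0.42, adjusted p = 0.0464). Without replicate 3 the changes of IAA11 and IAA29 were 0.08 and 0.14 and were not called (adjusted p = 0.524 and 0.544). IAA14 is the reverse case, with 5.18, 5.38 and 11.2 FPKM with eBL against 7.02, 6.59 and 6.25 FPKM in Control: its change was 0.04 with all libraries and -0.28 without replicate 3, then called (adjusted p = 0.0126). IAA20 showed the same split, at 3.21, 2.87 and 6.01 FPKM with eBL and 4.34, 4.25 and 3.92 FPKM in Control, and its change without replicate 3 was -0.36 (adjusted p = 0.109). IAA6 fell by 0.53 (0.235, 0.120 and 0 FPKM with eBL and 0.930, 0.503 and 0.446 FPKM in Control, adjusted p = 0.00406). A fit of the eBL and Control libraries alone, in which replicate 3 sets the error, called none of the 8 at 30 min.

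By 180 min with eBL the only call was IAA14, at 8.53, 7.74 and 7.63 FPKM, against 5.30, 4.85 and 5.77 FPKM in Control (0.51 ± 0.13, adjusted p = 0.00141), without overlap. IAA6 had 1.72, 1.37 and 1.84 FPKM with eBL, against 0.893, 1.49 and 0.899 FPKM in Control, where replicate 2 overlapped the eBL range (0.34 ± 0.15, adjusted p = 0.0699). It is called without that replicate (0.47, adjusted p = 0.0242).

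GA3 raised 1 member and lowered 1 at 5 min, lowered 2 at 30 min, and raised 2 and lowered 1 at 180 min. Of all genes, 23.7%, 14.4% and 17.3% were higher and 11%, 16.8% and 23.6% lower with GA3 at the 3 times. The counts of members thus stand beside a wide response and do not set the 8 apart from all genes. Quantile normalization made the higher share of all GA3 calls at 5 min 46.9% in place of 68.2%, and it moved the median of all genes by -0.13 there and by -0.12 with ZT at 5 min, more than in the other comparisons with Control (0.07 or less in size). ARF19 at 180 min had the smallest adjusted p of these, at 10.1, 6.99 and 7.66 FPKM with GA3, against 4.26, 5.09 and 3.90 FPKM in Control (0.76 ± 0.14, adjusted p = 1.46e-05). All GA3 libraries lay above all Control libraries, with replicate 1 the highest. IAA14 rose at the same time (8.02, 9.40 and 7.24 FPKM with GA3 and 5.30, 4.85 and 5.77 FPKM in Control, 0.54 ± 0.13, adjusted p = 0.00061). Its GA3 effect was larger at 180 than at 30 min by 0.80 ± 0.18 (adjusted p = 0.000722).

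IAA6 was listed at 0 in all 3 GA3 libraries at 30 min, against 0.930, 0.503 and 0.446 FPKM in Control, a change of -0.69 ± 0.15 on the log2 scale (adjusted p = 0.000457). With a floor of 3 reads over the group, which is 0.0589 FPKM, its level with GA3 was at least 10.6-fold below the Control mean of 0.626 FPKM. That mean rests on 31 reads, so the fold difference is itself uncertain. At 180 min IAA6 was still lower, at 0.416, 0.326 and 0.404 FPKM with GA3 and 0.893, 1.49 and 0.899 FPKM in Control (-0.59 ± 0.15, adjusted p = 0.00173). IAA20 had 1.48, 2.31 and 2.54 FPKM with GA3 at 30 min, against 4.34, 4.25 and 3.92 FPKM in Control (-0.75 ± 0.18, adjusted p = 0.00111). At 5 min it had 3.26, 3.79 and 3.19 FPKM with GA3 and 2.12, 2.25 and 2.13 FPKM in Control, a rise of 0.47 (adjusted p = 0.034) that is lost without any 1 of these 6 libraries (adjusted p up to 0.119). The fall of IAA11 at 5 min, to 5.07, 6.09 and 5.84 FPKM with GA3 against 7.74, 6.33 and 7.47 FPKM in Control (-0.29, adjusted p = 0.0292), is lost without Control replicate 1 or 3 or GA3 replicate 1 (adjusted p from 0.0941 to 0.153).

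The decreases of IAA6 and IAA20 were measured against a Control that itself moved. In Control, IAA6 had 0.0582, 0 and 0 FPKM at 5 min, 0.930, 0.503 and 0.446 FPKM at 30 min and 0.893, 1.49 and 0.899 FPKM at 180 min. Both later times were above 5 min, 30 min by 0.66 ± 0.15 and 180 min by 1.03 ± 0.15 (adjusted p = 0.000702 and 5.25e-07). IAA20 in Control was at 2.12, 2.25 and 2.13 FPKM at 5 min, 4.34, 4.25 and 3.92 FPKM at 30 min and 4.70, 5.06 and 6.09 FPKM at 180 min. It too was above 5 min at 30 min (0.71 ± 0.18, adjusted p = 0.00195) and at 180 min (0.98 ± 0.18, adjusted p = 1.88e-05). IAA11 was the only member called lower in Control at 180 than at 30 min (-0.32 ± 0.11, adjusted p = 0.0285), and this call is lost on leaving out any of 5 of the 6 libraries, the exception being Control 180 min replicate 3 (adjusted p from 0.0549 to 0.134). IAA14 was lower there too, without overlap, but was not called (-0.27 ± 0.13, adjusted p = 0.118). It is called with quantile normalization (adjusted p = 0.0352) or without eBL 30 min replicate 3 (adjusted p = 0.00806). Of all genes, 31.4% changed in Control between 5 and 30 min, 22.5% between 30 and 180 min and 41.7% between 5 and 180 min (49.9% of the last higher after quantile normalization, in place of 60.5%).

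The levels of IAA6 with ZT, eBL and GA3 at 30 min lay close together, from 0 to 0.235 FPKM. These are the compounds whose columns stand together at 30 and 180 min, apart from those of Control. When each of these 3 compounds was set against the mean of the other two in place of Control, the changes of IAA6 at 30 min were 0.02 with ZT, 0.11 with eBL and -0.13 with GA3, and none was called. Without eBL 30 min replicate 3 they were -0.02, 0.18 and -0.17, and again none was called. The fall of IAA20 with ZT and the rises of ARF19 with ZT at 30 min and GA3 at 180 min were still called, whereas IAA20 with GA3 at 30 min gave 0.02 and ARF19 with eBL at 30 min gave -0.03. Without that replicate these gave 0.16 and -0.23, not called, and IAA20 and ARF19 with ZT at 30 min were again called. Marker genes of shoot and root also differed between groups. At 5 min the summed level of the shoot markers was 43430 to 45164 FPKM with IAA, 30491 to 32434 with ZT, 31501 to 33103 with eBL and 27877 to 28770 with GA3, against 36581 to 39556 in Control. Of the 6, 3 were called higher with IAA, and 2 with ZT and 3 with GA3 lower. At 30 min the summed level of these genes, 6 of 6 in the list, was 29312 to 31992 FPKM with ZT, 19030 to 27764 with eBL and 30029 to 31699 with GA3, against 43051 to 50561 in Control, and 5 of the 6 genes were called lower with each compound (6 with eBL without replicate 3). At 180 min it was 27574 to 30222 FPKM with ZT, 26386 to 31081 with eBL, 27846 to 30799 with GA3 and 22044 to 22565 with IAA, against 36234 to 37401 in Control, with 3, 3, 4 and 4 of the 6 called lower. With IAA at 30 min it stood at 44697 to 45736 FPKM, with 0 of 6 called lower. CAB1 weighs most in the shoot sums, with a median of 17234 FPKM over the libraries (1626 to 31331), followed by RBCS1A (8595). The shoot sums were not computed without CAB1. The root markers, 6 of 7 in the table, were summed without PYK10, which outweighs the rest. At 5 min their sum was 2.78 to 3.36 FPKM with ZT and 26.9 to 27.4 with GA3, against 8.35 to 10.7 in Control, and of the 6 markers 4 were called lower with ZT, 5 higher and 1 lower with GA3, and 1 higher and 1 lower with IAA. At 30 min their sum was 9.45 to 10.8 FPKM with IAA, 14.7 to 15.5 with ZT, 10.3 to 14.5 with eBL and 6.51 to 7.61 with GA3, against 3.94 to 6.49 in Control. At 180 min it was 7.50 to 10.5 FPKM with IAA, 15.8 to 19.4 with eBL and 19.5 to 23.3 with GA3, against 5.08 to 6.25 in Control, while ZT stood at 3.85 to 5.34. With PYK10 the sum at 30 min was 1304 to 1381 FPKM with IAA, 891 to 935 with ZT, 1595, 1523 and 3437 in the eBL libraries (replicate 3 the highest) and 940 to 977 with GA3, against 1169 to 1211 FPKM in Control. PYK10 itself was lower with ZT (-0.41, adjusted p = 0.00967). At 180 min that sum was 1634 to 1668 FPKM with IAA, 1640 to 1741 with ZT, 1348 to 1350 with eBL and 2081 to 2381 with GA3, against 1442 to 1446 in Control. Of the 6 root markers, 6 were called higher with GA3 at 180 min, 5 with eBL at 180 min, 3 with ZT (and 2 lower) and 3 with eBL (4 without replicate 3) at 30 min, and 2 with IAA at 180 min. With GV the root sum without PYK10 was 4.97 to 6.01 FPKM at 5 min, 4.83 to 6.69 at 30 min and 9.03 to 10.0 at 180 min. With PYK10 it was 850 to 938 (817 to 857 in Control), 1061 to 1087 and 1762 to 1792 FPKM. The shoot sum with GV was 33365 to 36791, 49729 to 56407 and 32094 to 34764 FPKM. Of the markers, PRP1 and COBL9 were at 0 in 1 of 54 libraries each and the others in none. With GV 1 root and 1 shoot marker were called lower at 5 min, and 1 of each higher at 30 min. At 180 min 1 root marker was called higher and 1 shoot marker lower with GV. The part of these marker levels in the results on the members, the ZT and GA3 calls at 5 min included, was not tested.

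Set directly against the other compounds, IAA gave higher levels of nearly all members at 30 min. The question was which responses set auxin apart from the other compounds. At 30 min 7 members were higher with IAA than with GV, 7 than with ZT, 7 than with eBL and 8 than with GA3, where 11%, 22%, 23.3% and 19.8% of all genes were higher. Without eBL 30 min replicate 3 all 8 were higher than with eBL, ARF19 included (0.48, adjusted p = 0.00515), and 16.9% of all genes were. At 5 min 4 were higher than with GV, 3 than with ZT, 2 than with eBL and 3 than with GA3 (9.49%, 8.8%, 5.4% and 11.4% of all genes). At 180 min 7 were higher than with GV, 7 than with ZT, 5 than with eBL and 5 than with GA3 (14.5%, 29.4%, 24.8% and 26.1% of all genes). After quantile normalization the higher share of all calls was 53.3% in place of 34.5% against ZT and 53.2% in place of 35.7% against GA3 at 5 min. At 30 min it was 58.7% in place of 77.0% against GV, 48.3% in place of 58.3% against ZT and 47.8% in place of 63.7% against GA3. At 180 min it was 44.4% in place of 55.6% against GV, 46.9% in place of 64.1% against ZT, 47.0% in place of 64.3% against eBL and 47.9% in place of 65.6% against GA3, with the median of all genes moved by -0.13, -0.11 and -0.12 against ZT, eBL and GA3. These comparisons share the IAA libraries, so they are not independent of each other. Those against ZT, eBL and GA3 at 30 and 180 min also run between the column sets named above. IAA5, IAA6, IAA29 and IAA30 were higher with IAA than with each other compound at both 30 and 180 min, by 0.50 (IAA6 against eBL at 180 min) to 3.87 (IAA5 against GA3 at 30 min). The IAA6 call against eBL at 180 min is lost with a pseudocount of 0.1 FPKM (adjusted p = 0.285) and with quantile normalization (adjusted p = 0.0652).

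At 30 and 180 min the exceptions were ARF19, IAA14, IAA20 and IAA11. ARF19 at 30 min was 8.20, 8.31 and 8.71 FPKM with IAA and 9.36, 8.98 and 9.09 FPKM with ZT, ranges that did not overlap, but the difference of -0.11 ± 0.14 was not called (adjusted p = 0.571). At 180 min it was lower with IAA than with GA3, at 6.14, 6.02 and 5.41 FPKM with IAA and 10.1, 6.99 and 7.66 FPKM with GA3 (-0.42 ± 0.14, adjusted p = 0.0124), the 1 difference called in that direction. That call is lost without GA3 180 min replicate 1 (adjusted p = 0.136) or IAA 180 min replicate 3 (adjusted p = 0.0564). IAA14 at 180 min stood close with IAA, eBL and GA3, with differences of 0.00 ± 0.13 (IAA minus eBL, adjusted p = 0.985) and -0.03 ± 0.13 (IAA minus GA3, adjusted p = 0.88). IAA20 at 30 min was 5.82, 7.19 and 6.50 FPKM with IAA and 4.60, 5.20 and 5.52 FPKM with GV, a difference of 0.30 ± 0.18 that was not called (adjusted p = 0.311), against 1.99 ± 0.18 over ZT (adjusted p = 2.43e-12). At 5 min IAA11 was higher with IAA than with all 4 other compounds, by 0.29 (GV, adjusted p = 0.0494, lost without any 1 of the 6 libraries, with adjusted p from 0.0545 to 0.165) to 0.76 (GA3, adjusted p = 2.11e-07). The call against eBL is lost without IAA replicate 2 or 3 or eBL replicate 3 (limma adjusted p from 0.0518 to 0.0871). That against ZT is lost without ZT replicate 1 (adjusted p = 0.0782). At 180 min IAA11 was not called against eBL (0.21, adjusted p = 0.121) or GA3 (0.25, adjusted p = 0.0591). Both are called without eBL 30 min replicate 3 (adjusted p = 0.0435 and 0.0152). Its 180 min call against ZT (0.25, adjusted p = 0.0495) is lost with no filter, quantile normalization, voom and a replicate block (adjusted p from 0.0536 to 0.0867).

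**Figure D3:**
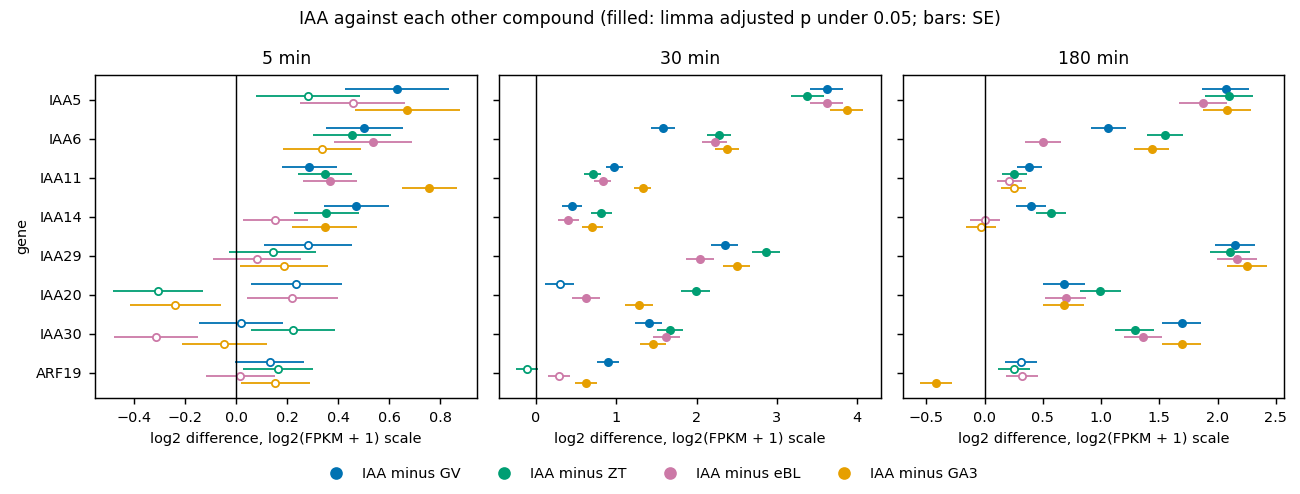
Difference between IAA and each other compound at the same time on the log2(FPKM + 1) scale, 1 panel per time with its own x axis, with circles at the estimate, bars of 1 SE and filled circles where the limma adjusted p is under 0.05. IAA5 stands farthest to the right at 30 min, and ARF19 lies near 0 against ZT at 30 min (-0.11) and below 0 against GA3 at 180 min (-0.42).

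The effects of the other compounds also differed between times for some members. Of the 8, 3 had a changed ZT effect between 5 and 30 min and 3 between 30 and 180 min (40.4% and 19.1% of all genes), 1 and 3 had a changed eBL effect (27.1% and 29.5%), 2 and 1 a changed GA3 effect (39.5% and 23.8%), and 0 and 0 a changed GV effect (10.5% and 4.75%, with 0 members at an unadjusted p under 0.05 and 0 by limma voom in both). Without eBL 30 min replicate 3, 1 and 2 had a changed eBL effect (24.9% and 26.5% of all genes), the first being IAA14 (-0.46, adjusted p = 0.0035) in place of IAA6. Quantile normalization made the higher share of all calls 54.3% in place of 38.3% for ZT and 53.9% in place of 34.7% for GA3 between 5 and 30 min (median of all genes moved by 0.15 and 0.18), 50.5% in place of 38.4% for eBL between 30 and 180 min, and 44.1% in place of 28.0% and 61.3% in place of 71.5% for GV. No called change of a member took the other sign under quantile normalization. Except for IAA30, whose ZT effect differed by 0.71 between 180 and 30 min (adjusted p = 0.0267), these were changes of ARF19, IAA6, IAA14 and IAA20. The IAA30 call is lost without any of 6 of the 12 libraries (adjusted p from 0.0507 to 0.102), with voom (adjusted p = 0.0517) and with the compared groups alone (adjusted p = 0.0598).

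The rest of the auxin pathway could be followed only in part, since genes with a mean between 10.5 and 344 FPKM are outside the table and others in it were below the filter. Of 22 other Aux/IAA genes 8 were in the table and 5 tested, of 21 other ARF genes 13 and 6, of 6 receptor genes 1 (AFB4), of 5 co-repressor genes 1 (TPR3) and of 12 auxin target genes 6 and 3. With IAA at 30 min 3 of the 5 other Aux/IAA genes rose: IAA34 by 1.13 (adjusted p = 1.61e-07), IAA32 by 1.27 (adjusted p = 3.27e-06) and IAA12 by 0.45 (adjusted p = 0.0379), with a list median of 0.45 beside 0.03 over all genes. IAA32 and IAA34 lack the degron, as do IAA20 and IAA30. Of the ARFs 1 of 6 rose, ARF16 by 0.63 (adjusted p = 3.78e-07). Beside both counts, 7.16% of all genes were higher with IAA at 30 min. Of the target genes tested, LBD29 rose by 2.73, GH3.1 by 2.78 and LBD18 by 2.82. GH3.1 and LBD29, at 7.15 and 7.38 FPKM with IAA and 0.183 and 0.283 FPKM in Control at 30 min, passed the filter through groups where they are high, while GH3.4, LBD17 and LBD33 were below it, so a count of targets is not read here. AFB4 (0.26) and TPR3 (0.18) were not called.

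At 180 min with IAA, LBD18 rose by 3.44, GH3.1 by 2.76 and LBD29 by 1.83, IAA32 and IAA34 rose by 0.84 and 0.82, and IAA27 fell by 0.58 (adjusted p = 0.000157). At 5 min IAA32 and IAA34 (2 of 5), ARF11 (1 of 6) and LBD29 had risen, beside 6.86% of all genes. GA3 at 180 min raised LBD18 by 2.44 (12.4 ± 0.648 FPKM with GA3 and 1.54 ± 0.722 FPKM in Control, SD, n = 3) and GH3.1 by 0.56, raised TPR3 by 0.54, and lowered IAA27 (-1.08) and IAA32 (-0.84). ZT at 30 min raised ARF5 by 0.43 and ARF16 by 0.26, and lowered ARF11 (-0.47) and IAA32 (-0.75). With ZT at 180 min 1 of 5 other Aux/IAA genes rose and 3 fell, and 2 of 6 ARF genes fell, ARF11 most (-1.08). Of all genes, 17.1% were higher and 24.7% lower there. With eBL at 30 min 1 of 5 Aux/IAA genes rose and 2 fell (1 and 1 without replicate 3). Of all genes, 23.1% were higher and 20.6% lower there (21.2% and 16.5% without replicate 3). With eBL at 180 min 1 of 5 rose and 1 fell, 3 of 6 ARF genes fell, AFB4 rose by 0.41 and LBD18 by 1.20. There 16.2% of all genes were higher and 21.8% lower. With GV none of these lists had a call at 5 or 30 min (0 of 5 Aux/IAA, 0 of 6 ARF and 0 of 3 target genes), and at 180 min the 1 call was LBD18. Of all genes, 7.82%, 1.51% and 5.59% were higher and 3.16%, 3.48% and 3.58% lower with GV at 5, 30 and 180 min.

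Over the 18 groups the members' patterns were most alike for IAA5 and IAA29 (Pearson r = 0.93 of group means of log2(FPKM + 1)) and for IAA29 and IAA30 (r = 0.93). They were least alike for IAA20 and ARF19 (r = -0.20), and the median of the 28 pairs was 0.62. Each point is the mean of 3 libraries, the groups of 1 time share their harvest time, and no test was made. Without the 3 IAA groups, a choice made after the values were seen, the median was 0.07. IAA5 and IAA29 then gave r = -0.06, and the highest value was that of IAA6 and IAA20 (r = 0.73).

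**Figure D4:**
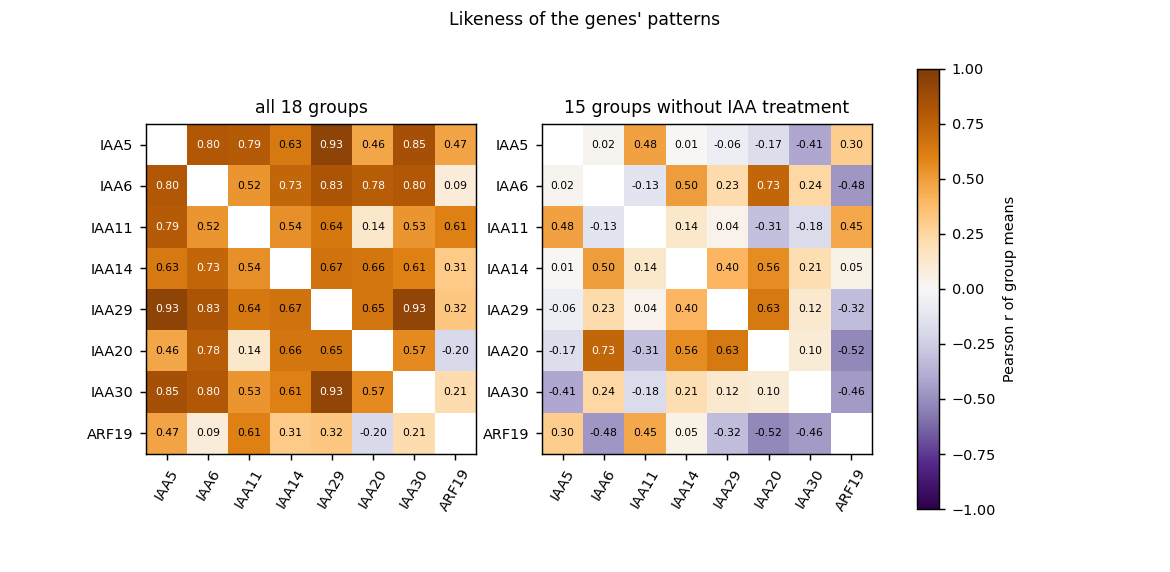
Pearson correlation of group means of log2(FPKM + 1) between each pair of genes, over all 18 groups on the left and over the 15 groups without IAA treatment on the right. IAA5, IAA29 and IAA30 correlate at 0.85 to 0.93 with each other on the left and at -0.41 to 0.12 on the right.

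Among all other genes tested, those with the most similar pattern over the 18 groups were named for each member. For IAA5 these were LBD29, a lateral organ boundaries factor (r = 0.98), and the small peptide genes RTFL13 and DVL21 (r = 0.95 each). IAA6 was most like ACS4, an enzyme of ethylene synthesis (r = 0.96), the kinase gene BSK5 (r = 0.95) and IAA32 (r = 0.95). IAA29 was most like GH3.1 (r = 0.96), the zinc finger gene ZFP2 (r = 0.96) and AT5G42410 (r = 0.95), and IAA30 most like GH3.1 and AT5G42410 (r = 0.92 each) and DVL21 (r = 0.90). For IAA11 the values were lower, with AT1G67900, CDF5 and the squalene epoxidase gene SQE2 at 0.84 to 0.85. IAA14 was most like AT3G06990, SAUR9 and AT4G13790 (r = 0.87 each). IAA20 was most like AT2G19660, EPFL5 and AT2G07435 (r = 0.88 to 0.89). The values of ARF19 were lower, with CYP705A8 highest (r = 0.79), followed by ESP4 (r = 0.77) and AT5G65290 (r = 0.76). All of these are the highest values picked from the genes tested, and no test was made. They were not computed without the IAA groups, on which the likeness of IAA5, IAA29 and IAA30 to each other rested.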

How the data were processed

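The authors deposited 1 table of the 54 libraries, whose values are taken as FPKM from the values themselves, since its header names no unit. The submitters' processing notes name Bowtie2 2.2.3 and TAIR10. The counter and its use of strand are unknown here. Of 24000 lines, 3 were damaged and 23997 were used. Every value was a whole number of reads (100%) within 0.05 reads. Columns were matched to libraries by name (0 unmatched), GV by elimination. The table holds 27.3% to 41.9% of each library's implied reads. Table and TAIR10.1 coordinates were identical for all 8 members.

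limma 3.58.1 (R 4.3.3, trend and robust) was fitted to log2(FPKM + 1) over all 54 libraries with 1 mean per group (36 residual degrees of freedom) for the 10622 genes with a group mean of at least 1 FPKM. P-values were adjusted over all of them by Benjamini-Hochberg within each comparison, and genes under 0.05 were called. Comparisons were each compound against Control (15), Control between times (3), IAA against each compound (12) and each compound's effect between times (10). Alternatives were a pseudocount of 0.1 FPKM, no filter, quantile normalization, limma voom on recovered read counts, a replicate block, the compared groups alone, the mean of the other compounds of ZT, eBL and GA3 as reference, and leaving out each library. The steps were tested on simulated data. Sequences were read from RefSeq TAIR10.1 and aligned with Biopython 1.88.

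Every member was named, with the 3 most correlated genes for each, and up to 3 genes with the smallest adjusted p from each pathway list. The members and lists were chosen with earlier results of these data known. Same-numbered replicates did not deviate together, so numbers were not treated as pairs.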

Additional observations from a re-analysis of the deposited data

Results flagged for a closer look

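The effect of a compound, its difference from the Control of the same time on the log2(FPKM + 1) scale, differed between times for 23 pairs of a member and an interval (limma interaction contrasts, adjusted p under 0.05). With IAA, the effect at 30 min exceeded that at 5 min by 2.86 for IAA5, 2.14 for IAA29, 1.54 for IAA30, 1.11 for IAA6, 0.75 for ARF19 and 0.66 for IAA11. The IAA5 and IAA6 differences were not called with a pseudocount of 0.1 FPKM. With limma voom that of IAA6 took the other sign (-0.81, adjusted p = 0.748). The effect of IAA at 180 min minus that at 30 min was -1.73 for IAA5, -0.84 for IAA6, -0.70 for IAA11 and -0.58 for ARF19, the last lost without any of 10 of the 12 libraries (adjusted p from 0.0622 to 0.149).

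With ZT the effect at 30 min minus that at 5 min was -2.00 for IAA20, -0.72 for IAA6 and 1.03 for ARF19, and the effect at 180 min minus that at 30 min was 1.02 for IAA20, 0.71 for IAA30 and -0.94 for ARF19. IAA20 and ARF19 thus moved in opposite directions in both intervals. The ZT effect on IAA30 was not called at 30 or 180 min on its own (changes of -0.37 and 0.34), and the difference between these times is lost without any of 6 of the 12 libraries, with voom and with the compared groups alone (adjusted p from 0.0507 to 0.102).

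With eBL the difference between 30 and 5 min was -0.58 for IAA6, and between 180 and 30 min it was 0.88 for IAA6, 0.47 for IAA14 and -0.61 for ARF19. Without eBL 30 min replicate 3, which stands apart from its group, the first was -0.50 and no longer called (adjusted p = 0.0962), and the others were 0.80 (IAA6, called), 0.79 (IAA14, called) and -0.42 (ARF19, adjusted p = 0.0859, not called). With GA3 the difference between 30 and 5 min was -1.22 for IAA20 and -0.94 for IAA6, and between 180 and 30 min it was 0.80 for IAA14.

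The level of IAA6 and IAA20 in Control at 5 min was below that at 30 min, and every one of these differences contains the Control of both times. IAA6 had 1 read in the Control libraries at 5 min and IAA5 had 3.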

How the results depend on the processing

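Most results on single members kept their direction and side of the threshold. Of the 120 changes against Control, 113 were unaltered by a pseudocount of 0.1 FPKM, 116 by dropping the filter on low values, 107 by quantile normalization, 117 by limma voom on recovered reads and 114 by fitting the compared groups alone. Replicate numbers did not mark pairs (correlations of deviations from -0.18 to 0.20, median 0.0007, over 459 pairs). With a replicate block all 120 were unaltered, and IAA11 against GV at 5 min and against ZT at 180 min (adjusted p = 0.0539 and 0.0536) and the IAA effect on ARF19 between 30 and 180 min (adjusted p = 0.0574) lost their calls.

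Counts of called members that moved by over 1.5 times are given for each comparison, with smaller moves for IAA against Control. IAA at 30 min called 7 in place of 8 with a pseudocount of 0.1 FPKM, with no filter and with quantile normalization, each time without IAA20. Its 180 min count was 5 in place of 7 with that pseudocount (without IAA6 and IAA20) and 8 with the compared groups alone, and at 5 min 4 in place of 3, with IAA14, under quantile normalization and with the compared groups alone. Under quantile normalization ZT at 5 min called 1 in place of 3, GA3 at 5 min 1 in place of 2, eBL at 30 min 2 in place of 4, GA3 at 30 min 4 in place of 2 and eBL at 180 min 3 in place of 1. Control called 4 in place of 2 between 5 and 30 min and 2 in place of 1 between 30 and 180 min, the eBL effect 2 in place of 1 between 5 and 30 min and the GA3 effect 2 in place of 1 between 30 and 180 min. With voom GA3 at 5 min called 0, Control between 30 and 180 min 0, IAA against GV at 5 min 2 in place of 4, the IAA effect between 30 and 180 min 2 in place of 4, the eBL effect between 5 and 30 min 0 and the GA3 effect between 30 and 180 min 2. With a pseudocount of 0.1 FPKM the counts were 1 in place of 2 for ZT at 180 min, 2 for IAA against GV at 5 min and 1 in place of 4 for the IAA effect between 30 and 180 min. Without a filter they were 1 for GA3 at 5 min, 1 for ZT at 180 min and 0 for the eBL effect between 5 and 30 min. With the compared groups alone they were 0 for eBL at 30 min, 1 for IAA against eBL at 5 min, 5 in place of 3 for the ZT effect between 5 and 30 min, 0 and 1 in place of 1 and 3 for the eBL effects, and 3 in place of 1 for the GA3 effect between 30 and 180 min. Here the error comes from fewer libraries.

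With the mean of the other compounds of ZT, eBL and GA3 as reference, eBL at 180 min called 2. Changes took the other sign for IAA6 with ZT and eBL at 30 min (0.023 and 0.11), IAA20 with eBL and GA3 at 30 min (1.01 and 0.024), ARF19 with eBL and GA3 at 30 min (-0.031 and -0.53) and ARF19 with ZT and eBL at 180 min (-0.30 and -0.40), since Control is not in that reference. Without eBL 30 min replicate 3 as well, IAA6, IAA11, IAA20 and ARF19 with eBL at 30 min gave 0.18, -0.016, 0.74 and -0.23, and IAA20 and ARF19 with GA3 0.16 and -0.43, and eBL called 1. The IAA effect on IAA6 between 5 and 30 min was -0.81 with voom. Leaving out 1 library at a time, the change of IAA14 with eBL at 30 min ran from -0.28 (without eBL replicate 3) to 0.21 (without eBL replicate 1). Leaving out eBL 30 min replicate 3 was added after seeing the data for comparisons that do not include eBL and for that reference.

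Leaving out 1 library at a time, the counts ran from 1 to 3 for ZT at 5 min, 0 to 2 for GA3 at 5 min, 2 to 4 for eBL and for GA3 at 30 min, 1 to 2 for ZT and for eBL at 180 min, 2 to 4 for Control between 5 and 30 min and 0 to 2 between 30 and 180 min. They ran from 1 to 4 for IAA against GV, 0 to 3 against ZT and 0 to 2 against eBL at 5 min, 3 to 6 for the ZT effect and 0 to 2 for the eBL effect between 5 and 30 min, and 1 to 4 for the eBL effect and 1 to 4 for the GA3 effect between 30 and 180 min. For IAA against Control they ran from 2 to 4, 6 to 8 and 6 to 8 at 5, 30 and 180 min. Depth limits IAA5 and IAA6 most, with 1139 and 711 reads over the 54 libraries, against 26300 for ARF19. The causes of these moves were not tested.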
